A study of Apis mellifera with 2 samples.

Results

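Crzr encodes the corazonin receptor of the honeybee, Apis mellifera, and is 1 of 12245 genes listed for both libraries of a single-nucleus RNA sequencing study of forager brains. The gene was taken as the row of that symbol in both count matrices. It was chosen by its level in both libraries and its spread over nuclei, which were already known, so its levels are given as a description, with no test. Bromocriptine, which activates dopamine receptors, had been given to the bees of the library called BRC, and water to those of the library called ddH2O. Each condition had 1 library, described in the series text as brains of 15 foragers pooled, whereas the study's methods give a larger pool drawn from several colonies. No spread between bees or libraries can be had from either. The sample titles describe feeding, whereas the treatment field describes a spray over the body. The study's methods name the subspecies as Apis mellifera carnica, and the bees' age is not given in the sources used here. Nuclei were released mechanically after trachea, ocelli and compound eyes had been removed.

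Corazonin is a neuropeptide hormone of insects, made in a small number of neurosecretory cells of the brain and released into the blood. Its receptor is a G protein-coupled receptor of the family that also holds the receptors of adipokinetic hormone and, in vertebrates, of gonadotropin-releasing hormone. In ants, corazonin has been tied to the switch between worker and egg-laying behaviour, and in Drosophila its receptor acts in peripheral tissues as well as in neurons.

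In assembly Amel_HAv3.1, Crzr lies on linkage group LG1, from base 10198903 to base 10212094, a span of 13192 bases with 3 RefSeq transcripts. The small protein-coding gene LOC102654114 (LG1, 10205817 to 10208138) lies wholly inside that span. The nearest genes outside it were LOC412813, which ends 14470 bases before, and LOC408600, which starts 15006 bases after.

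Each library was deposited as 20000 barcodes, with 76531513 unique molecular identifiers (UMIs, each standing for 1 captured RNA molecule) in BRC and 77047419 in ddH2O. After filters on nuclei and removal of doublets, 15896 BRC nuclei and 16716 ddH2O nuclei were kept, with medians of 1860 and 3237.5 UMIs over the shared genes. The libraries share 120 barcodes. Transcripts of gland genes were spread over both classes of brain cells in the BRC library: Mrjp1, a royal jelly protein gene, stood at 4235 CPM (counts per 1000000 UMIs) in its neuron-like nuclei and 3371 CPM in its glia-like nuclei. The part of free RNA in the levels below was not tested.

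The BRC library held 21690 Crzr UMIs in its kept nuclei, against 483 in the ddH2O library. On summed UMIs this was 575.6 CPM in BRC (95% exact Poisson interval 568.0 to 583.3) and 7.90 CPM in ddH2O (7.21 to 8.64), a ratio of 72.8 (66.5 to 79.9). These intervals, like all intervals given here, cover counting error only. Among 10337 genes with at least 100 UMIs over both libraries, Crzr had the 76th highest ratio of BRC over ddH2O. A ratio of at least 2 in favour of BRC was found for 15.7% of those genes, and the median log2 ratio of all of them was 0.02. Whether the treatment, the dissection or the preparation of the library set this ratio cannot be told apart with 1 library per condition, and fewer nuclei of a kind cannot be told from less RNA per nucleus in the summed counts.

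A Crzr UMI was seen in 4278 of 15896 BRC nuclei (26.9%, exact binomial interval 26.2 to 27.6) and in 440 of 16716 ddH2O nuclei (2.63%, 2.39 to 2.89). With every nucleus thinned to 1000 UMIs, which left out no nucleus, 21.0% of BRC nuclei (20.4 to 21.7) had a UMI, against 0.832% of ddH2O nuclei (0.6995 to 0.981). The BRC nuclei were thus the shallower ones and the ones with more Crzr. With each library cut into 4 parts of like size by depth, Crzr in BRC stood at 324 CPM in the shallowest part and at 726 CPM in the deepest. In ddH2O the 4 parts lay between 7.56 and 8.27 CPM. Of the BRC barcodes left out, the 2795 removed as doublets stood at 510 CPM, and the 1309 that failed the filters, with a median of 19549 UMIs, at 27.7 CPM. In ddH2O the 3160 removed as doublets stood at 8.32 CPM and the 124 that failed the filters at 11.5 CPM.

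Crzr was concentrated in a minority of BRC nuclei. In that library 2363 nuclei carried 3 or more UMIs and together held 89.3% of its Crzr UMIs, and 720 nuclei with 10 or more held 48.8%. The highest nucleus carried 49 UMIs. The variance over nuclei was 9.33 times the mean, and 3.35 times the mean after thinning. In ddH2O 7 kept nuclei carried 3 or more UMIs, 418 of the 440 nuclei with any had exactly 1, and the highest had 10. Its variance was 1.44 times the mean, and 1.05 times the mean after thinning.

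**Figure D1:**
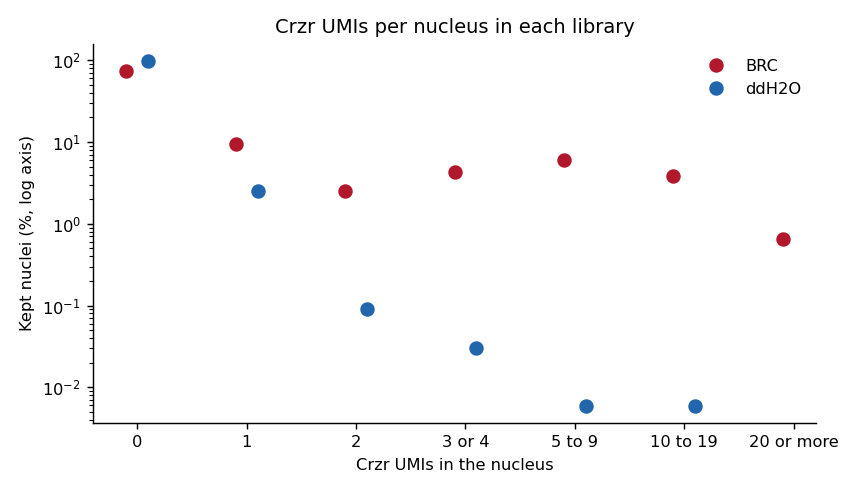
Share of kept nuclei (percent, log axis) by the number of Crzr UMIs they carry, for BRC (left point of each pair) and ddH2O. In BRC the share is 9.54% at 1 UMI, 2.50% at 2 UMIs and 6.04% at 5 to 9 UMIs. Bins above 2 UMIs span several values, so a higher point there does not mean a higher share per value. In ddH2O the share falls to 0.0897% at 2 UMIs, and no nucleus has 20 or more.

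Clusters were built without Crzr among the genes used. In the clustering that aligned both libraries, 1 cluster of 2310 BRC nuclei held 70.7% of the BRC Crzr UMIs, at 2538 CPM. Crzr was detected in 89.8% of its BRC nuclei, and its median nucleus had 5 UMIs. The 21 ddH2O nuclei placed in it stood at 320 CPM, with all 20 of their UMIs in 3 nuclei. The cluster next in level stood at 428 CPM in 3146 BRC nuclei, against 1 UMI in 34 ddH2O nuclei (8.20 CPM, 0.208 to 45.7, where 3 UMIs would be 24.6 CPM).

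Clustering without that alignment, listed as an alternative from the start, put most of the BRC Crzr UMIs into 3 clusters above 1000 CPM, a limit chosen after the levels had been seen. Cluster 3 had 2082 BRC nuclei, with Crzr at 2625 CPM, a median of 6 UMIs per nucleus and 102 nuclei (4.90%) without any. Cluster 23 had 341 BRC nuclei, with Crzr at 2296 CPM, a median of 7 UMIs and 3 nuclei (0.880%) without any. Cluster 10 had 994 BRC nuclei, with Crzr at 1356 CPM, a median of 1 UMI and 379 nuclei (38.1%) without any. The next cluster of at least 20 BRC nuclei stood at 149 CPM. Taken as 1 set, the 3 rich clusters had 3417 nuclei (21.5% of those of BRC) with 20078 Crzr UMIs (92.6%). From the ddH2O library 4 nuclei fell in them, of which 2, both in cluster 3, carried 19 Crzr UMIs.

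The number of rich clusters depended on the random start of the clustering, and their share of the UMIs did so less. With 5 other starts, cluster 3 again had 2082 nuclei at 2625 CPM each time. The other rich nuclei then formed 1 cluster of 802 to 1385 nuclei in place of clusters 23 and 10. In those starts 18.1% to 21.8% of BRC nuclei, with 90.5% to 92.7% of the Crzr UMIs, lay in rich clusters, the lowest shares coming from a start in which a further cluster stood at 350 CPM. Alignment kept cluster 3 together, with 94.7% of its nuclei in the richest aligned cluster. It placed 70.1% of cluster 23 and 56.9% of cluster 10 in the aligned cluster next in level.

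**Figure D2:**
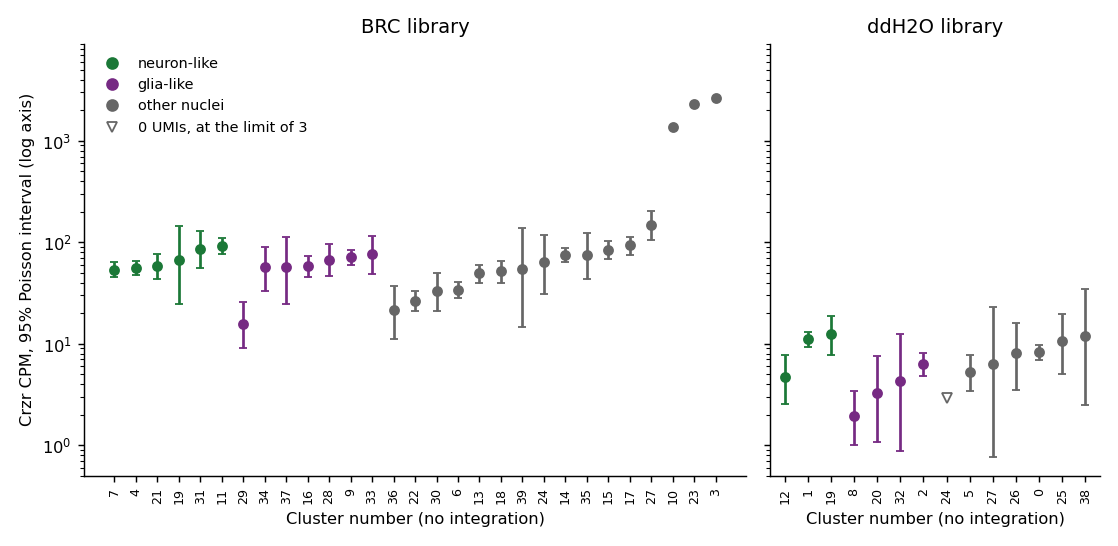
Crzr CPM (log axis) in each cluster of at least 20 nuclei, built without aligning the libraries, with 95% Poisson intervals, BRC left and ddH2O right; colours give the class and an open triangle a cluster with 0 UMIs, drawn at the limit of 3 UMIs. Clusters 3, 23 and 10 of BRC stand at 2625, 2296 and 1356 CPM and the next at 149 CPM, while the ddH2O clusters reach 12.4 CPM.

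The defining markers of neurons and of glia were low in the 3 Crzr-rich clusters, though not at 0. The RNA-binding protein gene fne, a marker of neurons, stood at 82.8 CPM in cluster 3, 70.4 CPM in cluster 23 and 146 CPM in cluster 10, against a mean of 774 CPM over the other BRC clusters. The glial transcription factor gene repo stood at 23.8 CPM in cluster 3, 49.5 CPM in cluster 23 and 68.4 CPM in cluster 10, against 727 CPM. Of 19 markers of the neuron lineage, 16 in cluster 3, 16 in cluster 23 and 13 in cluster 10 were at or below 1 in 1.5 of the mean of the other clusters, with 5 CPM added to both. Of the 10337 genes with at least 100 UMIs, 33.3% were that low in cluster 3, 36.6% in cluster 23 and 17.9% in cluster 10. A mean over clusters is pulled up by the few clusters in which a marker is high. The exceptions above 1.5-fold were the homeobox gene hth and the nuclear receptor gene svp in clusters 3 and 23, and the homeobox gene Lim1 in cluster 10. Of 12 glial markers, 9 in cluster 3, 8 in cluster 23 and 8 in cluster 10 were lower by that measure, to be read against the same shares.

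A few glial markers ran the other way. Genes at least 1.5-fold higher made up 9.04% of the same genes in cluster 3, 8.23% in cluster 23 and 8.96% in cluster 10. Tret1, a trehalose transporter gene, stood at 3266 CPM in cluster 3, 4217 CPM in cluster 23 and 2626 CPM in cluster 10, against 762.5 CPM. Mdr49, an ABC transporter gene, stood at 648 CPM in cluster 3, 1003 CPM in cluster 23 and 1004 CPM in cluster 10, against 289 CPM. Above 1.5-fold were also ldgf4 in clusters 23 and 10 and moody in cluster 10. In cluster 3 moody, a receptor gene of the blood-brain barrier in Drosophila, was lower, at 10.3 CPM against 42.03 CPM. The collagen gene vkg stood at 11.4 CPM in cluster 3, 12.2 CPM in cluster 23 and 59.5 CPM in cluster 10, against 133 CPM. Of 10 gland markers none was raised in a rich cluster, whereas 2 in cluster 3, 8 in cluster 23 and 0 in cluster 10 were lower by the same measure, against shares of 33.3%, 36.6% and 17.9% over all genes in those clusters. Mrjp1 stood at 2920.5 CPM in cluster 3, 2275 CPM in cluster 23 and 4496 CPM in cluster 10, against 3883 CPM. No rich cluster was given a cell type name.

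The rich clusters differed from each other in their other genes. FAR1, a fatty acyl-CoA reductase gene of lipid and wax synthesis, stood at 4951 CPM in cluster 3, 99.1 CPM in cluster 23 and 176 CPM in cluster 10, against 197 CPM. The epithelial transcription factor gene grh ran the other way, at 34.3 CPM in cluster 3, 677 CPM in cluster 23 and 2503 CPM in cluster 10, against 306 CPM. High grh did not by itself go with Crzr: the cluster highest in grh, at 2966 CPM, was cluster 13, where Crzr stood at 49.3 CPM in 840 BRC nuclei.

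Cluster 3 was also high in svp (2114 CPM), in the adenylate cyclase gene Ac3 (1194 CPM) and in the doublesex gene Dsx (3269 CPM). Cluster 23 was high in the chemosensory protein gene CSP3 (4384 CPM) and in the appendage gene Dll (1780 CPM). Cyp4g11, a cytochrome P450 gene of hydrocarbon synthesis, stood at 109 CPM there and was found in 16.1% of its nuclei. In cluster 3, where FAR1 was high, Cyp4g11 stood at 3.67 CPM, and in cluster 10 at 6.68 CPM. Its mean over the other BRC clusters was 9.42 CPM. Cluster 10 was high in Apd-2 (1153 CPM), a gene of the cuticle proteins called apidermins. Of the 3 cuticle markers it was the 1 raised there: Apd-1 and Apd-3 stood at 1.67 CPM, with 3 UMIs each. Among the 10 leading genes of each cluster, 9 in cluster 3, 10 in cluster 23 and 10 in cluster 10 carried only an identifier. LOC552829 came first in cluster 3, LOC413408 in cluster 23 and LOC725204 in cluster 10. These clusters were formed from the same nuclei, so their genes are a description.

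**Figure D3:**
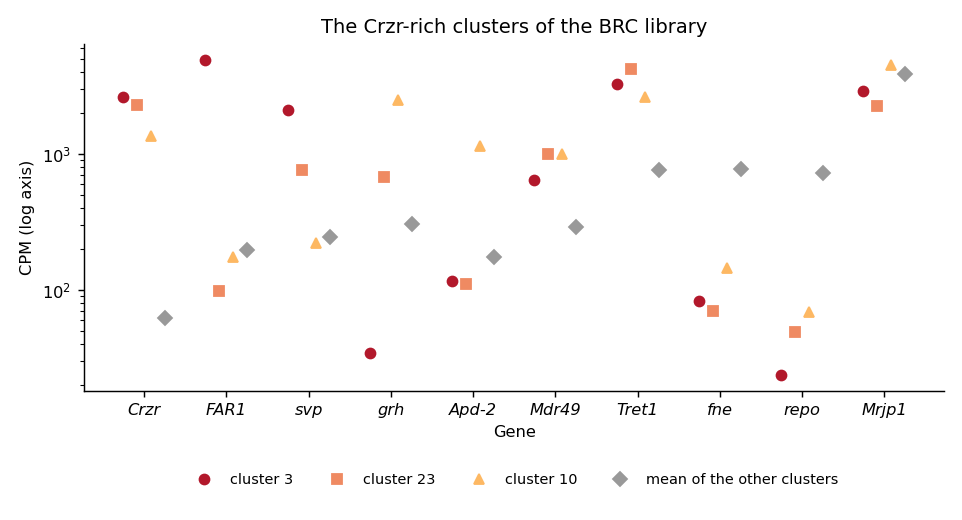
CPM (log axis) of Crzr and 9 other genes in clusters 3, 23 and 10 and as the mean of the other clusters of the BRC library, built without alignment. Crzr and Tret1 are high in all 3, FAR1 and svp are highest in cluster 3, grh and Apd-2 are highest in cluster 10, and fne and repo lie below the mean of the other clusters in all 3.

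Crzr was not even within these clusters, which were picked for their level of it. Thinned to 1000 UMIs, the variance was 1.74 times the mean in cluster 3, 1.31 times in cluster 23 and 2.36 times in cluster 10. After thinning, 85.1% of cluster 3 nuclei had a UMI, where a Poisson draw at the same mean gives 92.7%. In cluster 23 the share was 86.8%, where a Poisson draw gives 90.4%, and in cluster 10 it was 54.0%, where a Poisson draw gives 74.2%. Cluster 10 was itself mixed: the 566 of its nuclei that alignment placed in the aligned cluster next in level had 2.69 Crzr UMIs per nucleus, and 129 placed in another had 0.349.

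Neurons, glia and other nuclei were told apart by marker genes. In the aligned clustering 24.4% of BRC nuclei and 46.8% of ddH2O nuclei were neuron-like, 12.8% and 25.8% were glia-like, and 62.8% and 27.4% were neither. Without alignment 26.3% of BRC nuclei and 28.5% of ddH2O nuclei were neuron-like, so these shares depended on the clustering. In the aligned clustering, neuron-like nuclei had 84.8 CPM (78.2 to 91.9) in BRC and 7.97 CPM (6.93 to 9.13) in ddH2O, a ratio of 10.6 (9.08 to 12.5). Glia-like nuclei had 84.7 CPM (76.5 to 93.4) in BRC and 4.46 CPM (3.52 to 5.57) in ddH2O, a ratio of 18.99 (14.8 to 24.6). Other nuclei had 798 CPM (788 to 809) in BRC and 11.2 CPM (9.68 to 12.9) in ddH2O, a ratio of 71.4 (62.0 to 82.6). Genes at least 2-fold higher in BRC made up 6.36% of those with 100 UMIs in neuron-like nuclei and 12.1% in glia-like nuclei, where Crzr ranked 122nd of 8977 and 69th of 8605. With doublets kept in, the BRC level was 139 CPM in neuron-like nuclei and 154 CPM in glia-like nuclei.

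The aligned neuron and glia classes took in some nuclei of the rich clusters. Of the 601 Crzr UMIs of BRC neuron-like nuclei, 154 came from 47 such nuclei, and of the 396 of glia-like nuclei, 146 came from 46. Without alignment the classes were made of different clusters in each library. Clusters with at least 20 nuclei from each held 0.526% of BRC and 9.14% of ddH2O neuron-like nuclei, none of the glia-like nuclei, and 3.43% of BRC and 4.66% of ddH2O other nuclei outside the rich clusters. The ddH2O other nuclei included the 5056 of cluster 0, in which the neuron markers PLCe and vsx1 were raised. The values of the unaligned classes are therefore given side by side for nuclei that may be unlike. Neuron-like nuclei stood at 62.2 CPM in BRC and 10.1 CPM in ddH2O, a ratio of 6.19 (5.20 to 7.39). Glia-like nuclei then stood at 56.2 CPM in BRC and 4.52 CPM in ddH2O, a ratio of 12.4 (9.72 to 16.1). Other nuclei outside the rich clusters stood at 51.9 CPM in BRC and 8.09 CPM in ddH2O, a ratio of 6.41 (5.496 to 7.51). In the 3 unaligned clusters with at least 20 nuclei from each library, Crzr stood at 67.1 CPM in BRC and 12.4 CPM in ddH2O in neuron-like cluster 19, at 64.0 CPM in BRC and 0 UMIs in ddH2O in cluster 24, and at 149 CPM in BRC and 6.31 CPM (2 UMIs) in ddH2O in cluster 27. Over all nuclei outside the rich clusters, Crzr stood at 55.5 CPM in BRC and 7.59 CPM in ddH2O, a ratio of 7.31 (6.59 to 8.13).

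**Figure D4:**
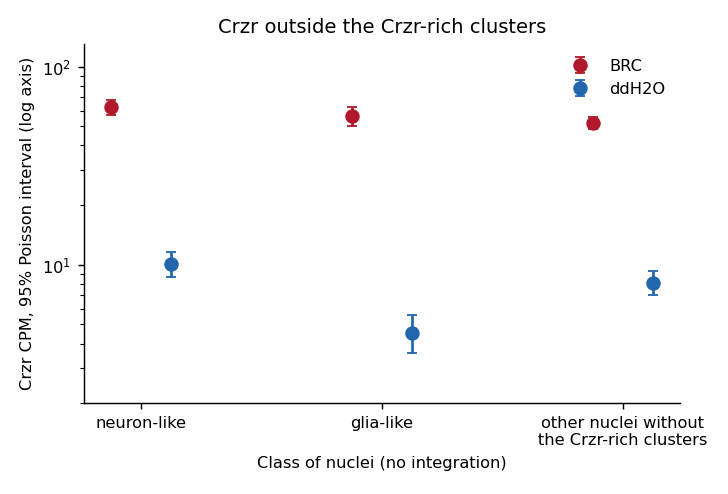
Crzr CPM (log axis, 95% Poisson intervals) in neuron-like, glia-like and other nuclei outside the Crzr-rich clusters, built without alignment, BRC left of ddH2O in each pair; each class consists of mostly different clusters in the libraries. The BRC points lie between 51.9 and 62.2 CPM, and the ddH2O points between 4.52 and 10.1 CPM.

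Outside the rich clusters the BRC level was nearly even over cell classes. Without alignment, neuron-like nuclei were 1.11 times glia-like nuclei in BRC (0.959 to 1.28), and 2.23 times in ddH2O (1.70 to 2.93). With the aligned classes, which took in some nuclei of the rich clusters, the values were 1.00 in BRC (0.881 to 1.14) and 1.79 in ddH2O (1.37 to 2.35). The size of the ddH2O difference thus depended on the clustering. Single clusters of at least 20 BRC nuclei ran from 53.9 to 91.4 CPM among 6 neuron-like ones, from 15.8 to 76.7 CPM among 7 glia-like ones and from 21.4 to 149 CPM among 13 others. In clusters of at least 100 nuclei, the thinned share of BRC nuclei with a Crzr UMI had a median of 6.24% over 21 clusters outside the rich ones. It ran from 0.538% in glia-like cluster 29 (186 nuclei, median 4635 UMIs) to 9.38% in neuron-like cluster 11.

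In ddH2O the thinned share had a median of 0.613% over 12 clusters, from 0% in cluster 24 (263 nuclei, median 3535 UMIs) to 1.61% in neuron-like cluster 19. For cluster 24, the limit that a count of 0 allows, taken as 3 UMIs, was 2.93 CPM. Set against 30 leading genes of the rich clusters, 10 from each, Crzr had 14.2 UMIs per 100 of theirs in cluster 3, 3.44 in cluster 23 and 7.32 in cluster 10. Summed over the 26 other BRC clusters it had 3.57, with single clusters between 1.26 and 8.22. The 30 genes were picked for being high in these same rich clusters, so these values depend on that choice and are a description. Thinned shares at the levels above were not read as expression.

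The ddH2O barcodes with several Crzr UMIs were looked at one by one, those left out elsewhere included. Over all ddH2O barcodes, 13 had 3 or more Crzr UMIs. Of these 5 had at least 15 FAR1 UMIs, and 5 others had at least 5 UMIs of jhamt and CYP15A1 together, the genes of the last enzymes of juvenile hormone synthesis, leaving 3 with neither. Of the 10 with either, 4 had been removed as doublets and 2 had failed the filters. Among the 7 kept nuclei, 4 had either and 3 had neither. These thresholds were chosen after the nuclei had been seen, and no other ddH2O barcode had 15 FAR1 UMIs, so the Crzr level of those 5 follows from the choice and is not compared. In BRC, 982 barcodes had at least 15 FAR1 UMIs, of which 967 carried Crzr, at 2137 CPM.

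A small cluster led by genes that include jhamt and CYP15A1 held Crzr in both libraries. It had 8 BRC nuclei with 13 Crzr UMIs, at 290 CPM, and 13 ddH2O nuclei with 19 UMIs, at 214 CPM. Their ratio was 1.36, with an interval of 0.616 to 2.90. Over all barcodes with at least 5 UMIs of these genes, the threshold chosen above, Crzr stood at 471 CPM in 16 of BRC and at 182 CPM in 18 of ddH2O. Of those 18, 5 were among the barcodes seen when the threshold was chosen, picked for 3 or more Crzr UMIs. These 2 levels are therefore a description and are not compared. In the cluster, a Crzr UMI was found in 8 of the 8 BRC nuclei and in 11 of the 13 ddH2O nuclei, whose median depths were 5272.5 and 6862 UMIs, and after thinning in 3 of the 8 and in 4 of the 13. In the aligned clustering, Crzr was higher in BRC in 19 of 19 clusters with at least 20 nuclei from each library. How many other genes were higher in all of these is not given here. The ratios of the 18 with UMIs in both had a median of 13.3 and ran from 5.27 to 52.3. The highest rested on the cluster with 1 ddH2O UMI. The next, 52.1, was that of a glia-like cluster with 67 BRC UMIs and 5 ddH2O UMIs. Of those 67, 21 came from 3 nuclei of cluster 3, 15 from 5 nuclei of cluster 10 and 5 from 1 nucleus of cluster 23. Other aligned clusters also took in nuclei of the rich clusters. The small cluster had too few nuclei for a cell type name.

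Genes detected together with Crzr were compared by the share of thinned nuclei that carried them, with and without a Crzr UMI. In BRC, LOC408361 came first, in 75.4% of 3342 nuclei with Crzr and in 14.3% of 12554 without. LOC552251 followed with 76.6% and 16.2%, and LOC408455 with 75.9% and 17.1%. Tret1 ranked 9th, with 79.6% of nuclei with Crzr and 31.9% of those without, and was the one gene with a symbol in the first 10. The other symbols in the first 100 were Dsx (77.0% and 30.6%), svp (55.4% and 14.8%), FAR1 (58.1% and 18.0%), hth (81.9% and 43.6%), Ac3 (40.5% and 8.17%), the nuclear receptor gene E75 (81.4% and 54.4%), osp (69.1% and 43.1%) and Mdr49 (43.0% and 18.8%). The neuronal gene fne went the other way, at 16.8% and 44.5%, as did repo, at 6.37% and 19.1%.

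This pattern followed the rich clusters. With clusters 3, 23 and 10 left out, the largest difference in BRC was 7.97 percentage points, for LOC725621 at 25.2% and 17.3%, against 61.1 points over all kept nuclei. With only the richest aligned cluster left out, LOC552251 came first, at 53.9% and 13.8%, and FAR1 was at 19.7% and 16.1%. In ddH2O the largest difference was 13.4 points, for hth at 33.1% of 139 nuclei with Crzr and 19.7% of 16577 without. LOC412813, the nearest gene before Crzr on LG1, came next at 43.2% and 30.3%, and without thinning it came first, at 80.5% and 58.9%, the 1 gene there with a difference over 20 points. The neuroligin gene NLG-5 (43.9% and 31.5%) and the nicotinic receptor subunit gene nAChRa4 (64.7% and 54.0%) were among its first 10, and FAR1 stood at 6.47% and 7.99%. With 139 nuclei these shares carry wide counting error, and without thinning 2 of the first 10 genes were the same.

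Across aligned clusters of at least 20 nuclei, the genes whose log2 CPM ran most like that of Crzr in BRC were LOC551587 (r = 0.96), LOC552251 (r = 0.96), LOC408361 (r = 0.95), LOC107964020 (r = 0.94) and LOC408455 (r = 0.94), over 20 clusters. The yellow-family gene Y-h stood at r = 0.88 and FAR1 at r = 0.80. Without alignment, over 29 clusters, LOC411983 came first (r = 0.90) and LOC408361 next (r = 0.88). In ddH2O the odorant receptor gene Or25 (r = 0.89), LOC100578628 (r = 0.88), LOC725764 (r = 0.87), LOC552189 (r = 0.86) and SsRbeta (r = 0.86) came first over 21 clusters, 1 of which is the cluster of 21 nuclei at 320 CPM. Without alignment, over 14 clusters, none of these 5 was among the first 5, and LOC100577600 came first (r = 0.83). Clusters of a library differed in median depth, and the part of free RNA in their levels was not tested, so these values describe likeness only.

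The ligand and the nearest related receptor did not move with Crzr. The corazonin gene Crz had 23 UMIs in BRC and 288 in ddH2O, or 0.610 and 4.71 CPM, a ratio of 0.130 (0.0808 to 0.198). It was seen in 21 BRC nuclei and 242 ddH2O nuclei, and the rich clusters held 5 of its BRC UMIs. The adipokinetic hormone receptor gene Akhr had 55 UMIs in BRC and 188 in ddH2O, a ratio of 0.474 (0.345 to 0.644), and stood at 1.40 CPM in cluster 3, 0.869 CPM in cluster 23 and 1.11 CPM in cluster 10.

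The neuropeptide precursor genes counted here were mostly lower in BRC. Only part of the precursor, receptor and second messenger genes planned for these lists is counted, so the counts do not stand for whole families. Of 6, Crz among them, 5 were at least 2-fold lower and none at least 2-fold higher, with a median log2 ratio of -2.63, while 11.7% of all genes tested were that much lower. The share of neuron-like nuclei was lower in BRC too, by the values above, and its part in this was not tested. Neuropeptide F (NPF) had a ratio of 0.0709 and tachykinin (Tk) of 0.376. Of 4 neuropeptide receptor genes, Akhr and the SIFamide receptor SIFR were at least 2-fold lower, the tachykinin-related peptide receptor TRP-R was at 1.04, and the insulin receptor InR-2 was at 1.29. Among second messenger genes, Pkc was at 0.730, the protein kinase A gene PKA-c1 at 0.689, and the adenylate cyclase genes at 1.06 for Ac3 and 0.421 for ac8. Within BRC, 2 of these 14 genes, Ac3 and InR-2, were at least 2-fold higher in the rich clusters than in the other nuclei, and 6 were at least 2-fold lower, where 6.89% of the 10337 genes were that much higher and 24.5% that much lower. The log2 ratios of the 6 were -4.31 for TRP-R, -3.30 for ac8, -3.12 for SIFR, -2.82 for Tk, -1.63 for Pkc and -1.17 for the insulin-like peptide gene ILP-2. Ac3 stood at 1194 CPM in cluster 3, 146 CPM in cluster 23 and 124 CPM in cluster 10, against 72.1 CPM, and InR-2 at 140 CPM over the rich clusters, against 52.8 CPM.

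**Figure D5:**
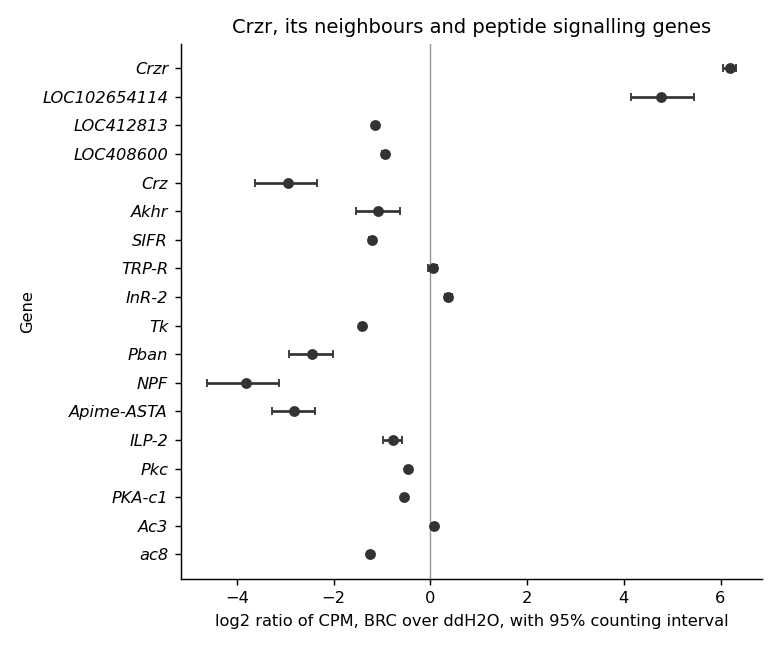
log2 ratio of CPM, BRC over ddH2O, for Crzr, the gene inside its span, its neighbours and genes of peptide signalling, with 95% counting intervals (n = 1 library per condition). Crzr lies at 6.19 and LOC102654114 at 4.76, whereas Crz lies at -2.95 and LOC412813 at -1.14.

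Of the genes at the locus, the one inside the Crzr span ran with it. LOC102654114 had 368 UMIs in BRC and 22 in ddH2O, a ratio of 27.1 (17.6 to 43.8), and stood at 32.7 CPM in cluster 3, 69.5 CPM in cluster 23 and 43.4 CPM in cluster 10, against 0.793 CPM in the other BRC nuclei. Of 341 BRC nuclei with a UMI of it, 322 (94.4%) also had a Crzr UMI, against 1 of 22 in ddH2O. The table used gives no strand, so reads of the overlapping pair may have been shared between them by the authors' counting. Between the libraries, the genes outside the span did not run with Crzr: LOC412813 had a ratio of 0.455 (0.443 to 0.467), and LOC408600 had a ratio of 0.521 (0.503 to 0.540). Within ddH2O, as given above, LOC412813 was among the genes most often detected with it.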

How the data were processed

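Raw unique molecular identifier counts per gene and nucleus were deposited by the authors as 1 matrix per library, made with Cell Ranger on assembly Amel_HAv3.1. The file headers give Cell Ranger 7.2.0 for BRC and 7.0.1 for ddH2O, and the submitters' processing notes give 7.0.1 for both. The BRC matrix lists 12635 features and the ddH2O matrix 12245. Whether the differences in version and in feature list moved any count was not tested.

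Nuclei were kept with log10 genes over log10 UMIs above 0.85, 200 to 5000 genes and under 5% mitochondrial UMIs. Doublets, at 0.8% per 1000 nuclei, were removed by their share of simulated doublets among neighbours, in place of the caller the study used. Clustering used Seurat 5.3.0 in R 4.3.3, with 2000 variable features less Crzr, 50 principal components, canonical correlation alignment and resolution 0.5. A cluster was called neuron-like or glia-like when at least 3 markers of that class stood 1.5-fold above the mean of the other clusters outnumbered those of the other class and held a defining marker, and no other class led its first 10 genes. That scoring was set after the clusters had been seen. Of the markers listed, 1 (wrapper) could not be matched to a gene identifier. The gene, its lists and the markers were chosen with earlier results of these data known.

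Levels were summed UMIs per 1000000 UMIs over the 12245 shared genes, in Python 3.11.15. With 1 library per condition no test was run. Intervals are exact 95% Poisson, Clopper-Pearson or conditional binomial intervals. Shares of nuclei were compared after thinning each nucleus to 1000 UMIs. The script was tested on simulated data. Genes were named by rank: the first 10 by difference in detection with Crzr, the first 5 by correlation over clusters, the first 10 by fold in a rich cluster, and genes with a symbol within the first 100 or 200 of these. TRP-R, ac8, jhamt and CYP15A1 were matched through RefSeq synonyms. Alternatives covered the filters, doublets, scaling, thinning, alignment and resolution, and those on the rich clusters and on random starts were added after seeing the data.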

Additional observations from a re-analysis of the deposited data

How the results depend on the processing

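Of 85 alternative values, 49 stayed within the counting interval or 1.5 times the count of the value reported, 36 moved and 0 reversed, and the ratio of BRC over ddH2O stayed above 1 in 28 of 28. With all barcodes the BRC level was 372.6 CPM and the log2 ratio 5.53. With doublets kept the BRC level was 559.8 CPM, the richest aligned cluster held 61.4% of its Crzr UMIs, the class levels were 139 CPM for neuron-like, 154 CPM for glia-like and 777 CPM for other nuclei, and the log2 ratios 4.06 for neuron-like and 4.85 for glia-like nuclei. The share of nuclei with a UMI was 26.9% in BRC and 2.63% in ddH2O without thinning, and 14.9% and 0.371% after thinning to 500 UMIs. The log2 ratio was 6.03 as a mean over nuclei, 5.96 thinned, 4.73 without the richest aligned cluster and 2.87 without the clusters over 1000 CPM.

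Without alignment, the BRC levels were 62.2 CPM for neuron-like, 56.2 CPM for glia-like and 861 CPM for other nuclei, and 51.9 CPM for others without the rich clusters. The ddH2O levels were 10.1 CPM for neuron-like nuclei, 8.84 CPM for other nuclei and 8.09 CPM for others without the rich clusters. The log2 ratios were then 2.63, 3.64 and 6.61 for neuron-like, glia-like and other nuclei. The richest cluster held 69.2% of the BRC Crzr UMIs and the clusters over 1000 CPM held 92.6%, or 90.5% in the random start that moved it most. At resolution 1.0, other nuclei stood at 871 CPM in BRC and 14.7 CPM in ddH2O, a log2 ratio of 5.89. Of the first 10 genes detected with Crzr, 6 remained in BRC without the richest aligned cluster and 1 without the clusters over 1000 CPM, and in ddH2O 2 remained without thinning and 5 with doublets kept. The cause of these changes was not tested. No paired analysis was possible because each condition had 1 library. The 483 Crzr UMIs of ddH2O limit its values for single clusters and for genes detected with Crzr.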
